A study of Mus musculus with 40 samples.

Results

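The genes described here are the chemokines and chemokine receptors expressed in mouse rib before and after large-scale resection of the rib bone. They were chosen by name, as genes of the deposited expression table whose symbol begins with Ccl, Cxcl, Ccr, Cxcr or Ackr followed by a digit, or with Cx3c, or is Ccrl2, Xcl1, Xcr1, Pf4 or Ppbp. The 55 genes described, of the 21204 in the table, comprise 33 that encode ligands and 22 that encode receptors. A further 10 genes with such names were below the authors' filter on low counts and had at most 7 reads in any library. The bulk RNA sequencing compared wild-type female mice of 2 ages, skeletally immature mice labelled as 7 weeks old and skeletally mature mice labelled as older than 10 months, all without a drug treatment, and the study's methods spell the strain C75BL/6. Tissue was taken at baseline, on the day of resection (0dpr), and 2, 5 and 14 days post-resection (2dpr, 5dpr and 14dpr). The baseline samples are a composite of bone, marrow and intercostal muscle, and the later samples are labelled as bone callus. The sample labels place the collection of baseline tissue after resection, whereas the study describes baseline as the state before surgery.

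Chemokines are small secreted proteins that bind to cell surfaces and matrix and steer the migration of leukocytes that carry the matching G-protein-coupled receptor. Ligands with an ELR motif act on Cxcr2 and draw neutrophils, the Ccl2 group acts on Ccr2 and draws monocytes, and homeostatic ligands such as Cxcl12 retain haematopoietic cells in the marrow and place lymphocytes in tissue. Atypical receptors bind chemokines without G-protein signaling and clear or transport them. In healing bone, an early wave of neutrophils and monocytes is followed by macrophages and by the stromal cells that form the callus.

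Most of these genes lie in a few clusters on the mouse genome (build GRCm38), in which neighbouring copies have related sequences and functions. The ELR ligands Cxcl1, Cxcl2, Cxcl3 and Cxcl5 share chr5:90759360-90905938 with the platelet genes Pf4 and Ppbp. Ccl2, Ccl7, Ccl8, Ccl11 and Ccl12 lie at chr11:82035571-82116799, and Ccl3, Ccl4, Ccl5, Ccl6 and Ccl9 at chr11:83525778-83664683. Cxcl9, Cxcl10 and Cxcl11 lie at chr5:92321347-92365485, Ccl17, Ccl22 and Cx3cl1 at chr8:94745590-94812036, and the receptor genes Ccr1, Ccr1l1, Ccr2, Ccr3, Ccr9, Cxcr6 and Xcr1 at chr9:123678439-124113557.

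The values below are read counts and levels in CPM (reads of a gene relative to the total reads of its library) after scaling each library by the trimmed mean of M-values (TMM), given library by library in the order of the replicate numbers. There were 39 libraries with 6075355 to 21546977 reads counted in genes, in groups of 4 (3 for mature mice at 5dpr). Changes were tested with edgeR's quasi-likelihood test in 1 model of the 10 groups, and a gene is said to have risen or fallen where its p-value, adjusted by Benjamini-Hochberg over all 21204 genes, was under 0.05. Errors of fold changes are standard errors (SE), and those of group means are standard deviations (SD). Mature 2dpr replicate 3 and immature 0dpr replicate 1 had the lowest median correlations with the other libraries of their groups (0.891 and 0.919). Where a call is said to be lost, the adjusted p of that fit stands in parentheses, and the fits include one with the replicate number as a block and one of only the libraries of the groups compared. Calls lost in a fit with a muscle score as covariate are not listed beside each gene. In bulk tissue, fewer cells of a type and less RNA per cell cannot be told apart. The makeup of the samples moved strongly with the stages. The summed level of 20 skeletal muscle genes was 91242 to 118374 CPM in immature mice at baseline, 128002 to 238205 CPM at 0dpr and 19821 to 31838 CPM at 2dpr. Its part in the results was examined only by a fit with a muscle score as covariate. Because these ranges did not overlap, that fit cannot fully separate muscle content from stage. Calls kept or lost in it therefore do not settle the part of muscle. The summed level of 10 monocyte and macrophage markers was 1011 to 1860.3 CPM at 0dpr and 6775 to 8092 CPM at 2dpr in immature mice, and 1035 to 2276 and 6274 to 8023 CPM in mature mice. Every marker of the 12 lists of cell types that were examined had reads in every group. Shares of all genes that rose or fell, given below for each comparison, are also the background for counts of such listed genes.

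**Figure D1:**
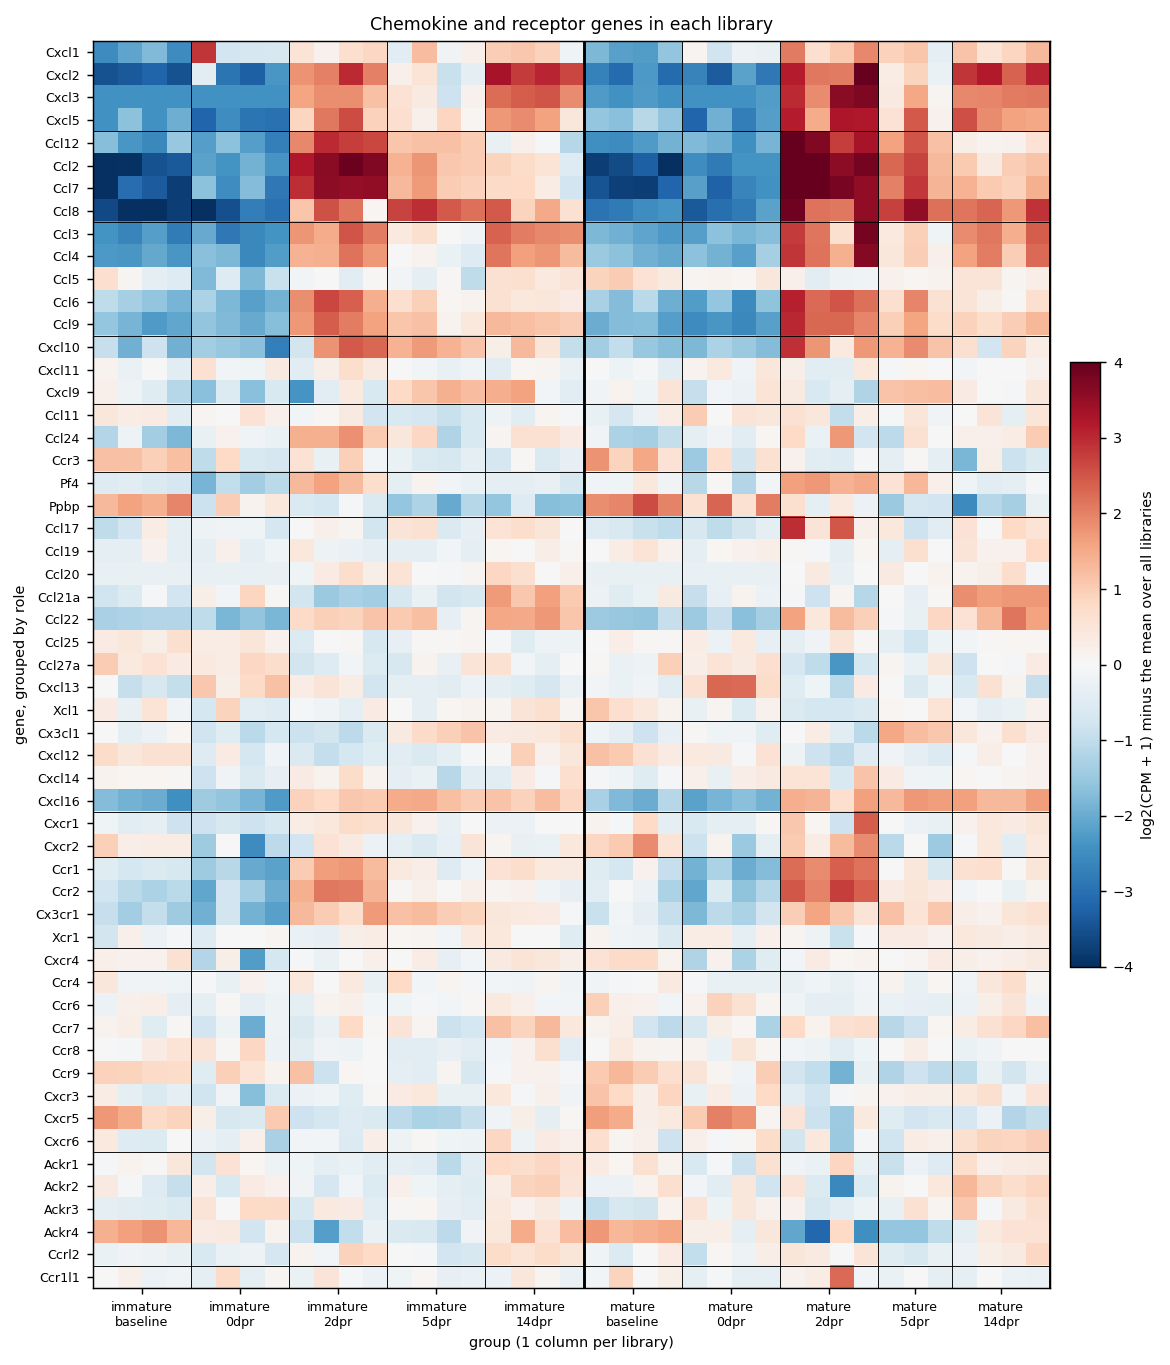
Heat map of the 55 genes (rows, grouped by role) in the 39 libraries (columns, grouped by age and stage), with the color giving log2(CPM + 1) minus the gene's mean over all libraries. The monocyte ligands Ccl2 and Ccl7 and the receptors Ccr1 and Ccr2 are highest at 2dpr at both ages, and Ccl21a is highest at 14dpr.

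The summed level of the 55 genes was highest at 2dpr and still above baseline at 14dpr at both ages. It was 1297 to 1445 CPM in immature mice at baseline, 794 to 1161 at 0dpr, 3569 to 5528 at 2dpr, 1757 to 2561 at 5dpr and 2112 to 2659.6 at 14dpr. In mature mice the sums were 1403 to 1932 CPM, 898 to 1485, 5767 to 8748, 2181.8 to 3923 and 2195 to 2934. The 2dpr libraries had the highest sums at both ages and overlapped with no other stage, and those of 14dpr did not overlap with baseline. At 0dpr the sums were below baseline without overlap in immature mice, and the mature ranges overlapped. The 6 most abundant genes held 73.3% of the sum in immature mice at 2dpr, and these were Ccl6, Ccl9, Ccr2, Pf4, Ccl2 and Ccl7.

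The composition of the sum also changed. Per kilobase of exon, which allows levels of different genes to be compared, the leading transcripts in immature mice at baseline were Ppbp at 215 CPM per kilobase, Pf4 at 143 and Cxcr4 at 57.1. At 2dpr they were Ccl6 at 661, Pf4 at 505, Ccl2 at 271 and Ccl7 at 268 CPM per kilobase. At 14dpr Ccl8, Ccl6 and Pf4 had the highest means, 203, 199.7 and 158 CPM per kilobase, and immature 14dpr replicate 1 read 196 CPM of Ccl8 where the other libraries read 54.0 to 100.1 CPM. In mature mice the highest means were those of Ppbp, Pf4 and Cxcr4 at baseline, of Ccl6, Pf4 and Ccl8 at 2dpr, and of Ccl8, Ccl6 and Pf4 at 14dpr.

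On the day of resection, 7 of the 55 genes rose (12.7%) and 8 fell (14.5%) in immature mice relative to baseline, where 5.98% of all genes tested rose and 4.66% fell. In mature mice 6 rose (10.9%) and 5 fell (9.09%), beside 11.9% and 10.6% of all genes, so the mature shares were not above those of all genes. Cxcl1, Ccl2, Ccl7, Cxcl13 and Ackr3 rose at both ages, which is 71.4% of the immature and 83.3% of the mature list, and Ccr1, Ccr3, Cxcr2 and Cxcr4 fell at both ages, 50% and 80% of the lists. Shares of the lists common to both ages were not computed over all genes at this or any later step. They therefore do not set these genes apart from others. The median log2 fold change of the 55 genes was -0.33 in immature and -0.17 in mature mice, beside 0.00 and -0.02 over all genes. The immature count dropped from 15 to 8 without baseline replicate 6, to 8 without 0dpr replicate 1, to 7 without 0dpr replicate 3 and to 1 without both 0dpr replicates 1 and 3, and the mature count dropped from 11 to 7 without baseline replicate 1 or 2 and to 6 without baseline replicate 3 or 0dpr replicate 1 or 3. With the replicate block 5 genes were called in immature mice and with only the libraries compared 1. With the muscle score as covariate, 6 genes were called in immature mice (Ccl2, Ccl7, Cxcl1 and Ackr3 higher, Ccl5 and Ccr1 lower) and 2 in mature mice (Ccl2 and Cxcl1).

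The broadest change came between 0dpr and 2dpr. In immature mice 26 genes rose and 3 fell, beside 21.8% higher and 22.2% lower among all genes, and in mature mice 25 rose and 8 fell, beside 22.7% and 24.9%. The 22 genes that rose at both ages made up 84.6% of the immature and 88% of the mature list, whereas Ccl27a alone fell at both ages (33.3% and 12.5%). The median log2 fold change of the 55 genes was 0.83 in immature and 0.71 in mature mice, beside -0.04 and -0.05 over all genes. Cxcl3 and Ccl20 stayed above these medians at the bounds given below, so setting them there could not move the medians. Ligands accounted for 19 of the 26 genes that rose in immature mice and receptors for 7, and in mature mice for 18 and 7 of the 25. With the muscle score as covariate, 18 genes were called in immature and 15 in mature mice. Those called at both ages in that fit were Cxcl2, Cxcl3, Cxcl5, Ccl2, Ccl3, Ccl4, Ccl6, Ccl7, Ccl8, Ccl9, Ccl12, Cxcl16, Ccr1 and Ccr2. The calls of Cxcl10, Ccl20, Cxcr2, Cxcr4 and Ccl27a were lost in it at both ages. Those of Pf4, Ccl22, Cx3cr1 and Cxcr1 were lost in mature mice only. Calls made at a single age and lost included Ccl21a in immature and Cxcl1, Ccl17 and Ppbp in mature mice.

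From 2dpr to 5dpr more genes fell than rose. In immature mice 15 fell and 2 rose, beside 3.68% lower and 4.37% higher among all genes, and in mature mice 18 fell and 4 rose, beside 6.38% and 8.16%. The 13 genes that fell at both ages were 86.7% of the immature and 72.2% of the mature list, and Cxcl9 and Cx3cl1 rose at both ages. The median log2 fold change was -0.55 and -0.55, beside 0.01 and 0.06 over all genes. From 5dpr to 14dpr 8 genes rose and 1 fell in immature mice (background 1.73% higher and 1.45% lower), and 3 rose and 4 fell in mature mice (background 1.95% and 2.23%). Cxcl2, Ccl3 and Ccl21a rose and Ccl12 fell at both ages. The mature count of 7 dropped to 4 without mature 5dpr replicate 3, reached 12 in the fit without mature 2dpr replicate 3, and was 14 with DESeq2. The medians were 0.48 and 0.33, beside -0.02 and -0.02 over all genes.

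At 14dpr the tissue still differed from baseline. In immature mice 25 genes were higher and 4 lower, beside 16.4% and 15.1% of all genes, and in mature mice 23 were higher and 6 lower, beside 17.1% and 16.4%. The 22 genes higher at both ages were 88% of the immature and 95.7% of the mature list. The median log2 fold change was 0.90 and 0.90, beside -0.04 and -0.03 over all genes. With the muscle score as covariate, 13 genes were called in immature and 22 in mature mice. The calls of Ccl24, Ccr1, Cx3cl1, Cx3cr1 and Cxcl10 were lost in that fit at both ages. Those of Ccr2, Ackr3 and Cxcl1 were among the losses in immature mice. These comparisons share groups with one another, so their lists are given side by side and are not independent.

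**Figure D2:**
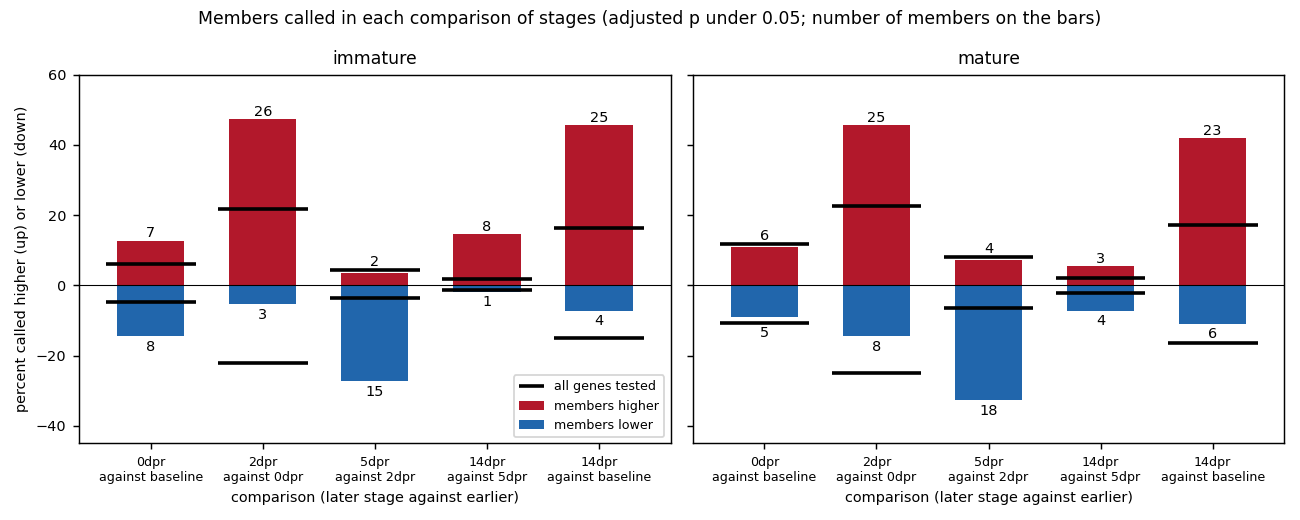
Percent of the 55 genes that rose (upward bars) or fell (downward bars) in each comparison of stages in immature and mature mice, with the number of genes at each bar and black lines for the percent of all 21204 genes. At 2dpr against 0dpr 26 and 25 genes rose, and at 5dpr against 2dpr 15 and 18 fell.

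The neutrophil ligands Cxcl1, Cxcl2, Cxcl3 and Cxcl5 were low at baseline and high at 2dpr and 14dpr. Cxcl1, Cxcl2 and Cxcl3 lie in 1 cluster, and the bases before their starts are shown because these genes rose together at 2dpr in mature mice and because each window holds the GGNNTTTCC pattern to which NF-kB family factors are known to bind. Stretches of 70 bases, 100 to 31 bases before the annotated start (RefSeq, GRCm38.p6, plus strand, chr5:90891145-90891214 for Cxcl1, chr5:90903799-90903868 for Cxcl2 and chr5:90786001-90786070 for Cxcl3), are given 5′ to 3′ with matches to GGNNTTTCC, or to its reverse complement GGAAANNCC, in capitals.
Cxcl1: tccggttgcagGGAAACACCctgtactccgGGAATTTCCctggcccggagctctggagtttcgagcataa
Cxcl2: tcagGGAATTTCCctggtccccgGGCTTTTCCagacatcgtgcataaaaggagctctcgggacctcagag
Cxcl3: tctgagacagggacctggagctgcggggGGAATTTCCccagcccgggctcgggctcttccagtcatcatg
The match GGAATTTCC occurs in all 3 stretches. Searched on both strands, the pattern was present in 20% of the 50 windows of 44 member genes (250 bases before to 50 after a start), those of Cxcl1, Cxcl2, Cxcl3, Cxcl9, Cxcl10, Ccl9, Ccl20, Ccr3, Ccrl2 and Ackr4, and in 5.82% of 32851 windows of all genes. TATAAA was present in 28.0% of member windows and 13.6% of all windows, and GAAANNGAA, a core of interferon-responsive elements, in 14.0% and 8.56%. A match describes the letters in a window and is not a measured binding site. No window was used for Ccl2, Ccl4, Ccl5, Ccl7, Ccl11, Ccl24, Ccr7, Cxcl5, Cxcl11, Cxcl16 and Cxcr5.

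Cxcl1 (KC, an early neutrophil attractant; ENSMUSG00000029380, chr5:90891241-90893115) was already up on the day of surgery. Immature libraries read 0, 0.309, 0.681 and 0 CPM at baseline and 40.0, 2.34, 2.55 and 2.64 CPM at 0dpr, and mature libraries read 0.629, 0.251, 0.197 and 0.898 at baseline and 5.18, 2.25, 3.88 and 3.61 CPM at 0dpr. Every 0dpr library lay above every baseline library of its age, with immature 0dpr replicate 1 far above the rest. Cxcl1 rose by a log2 fold change of 5.54 ± 0.89 SE in immature mice (adjusted p = 0.000277) and of 2.93 ± 0.822 SE in mature mice (adjusted p = 0.00904), and both calls held with each library left out, with an immature value of 3.29 without immature 0dpr replicate 1 and 6.61 without immature baseline replicate 4. The immature call was lost with only the libraries compared (0.0877). It then rose again to 2dpr only in the mature comparison, from a mean of 3.73 ± 1.2 to 15.6 ± 7.37 CPM (SD, n = 4; log2 fold change 2.07 ± 0.655 SE, adjusted p = 0.00884), while the immature value was -0.65 ± 0.624 SE (adjusted p = 0.417). The difference between these changes was -2.73 ± 0.903 SE on the log2 scale and did not pass the test (adjusted p = 0.263).

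Cxcl2 (MIP-2, made by activated myeloid and stromal cells; ENSMUSG00000058427, chr5:90903871-90905938) and Cxcl3 (its close paralog; ENSMUSG00000029379, chr5:90786103-90789600) had higher levels at 2dpr and at 14dpr, the last stage sampled, than at 5dpr. In immature mice Cxcl2 read 0, 0.103, 0.227 and 0 CPM at baseline, 7.32, 0.493, 0.182 and 1.25 at 0dpr, 38.4, 44.9, 88.4 and 44.5 at 2dpr, 12.1, 15.3, 5.04 and 7.81 at 5dpr and 110.3, 78.0, 92.3 and 70.6 at 14dpr. In mature mice it read 0.734, 0.335, 1.28 and 0.337 CPM at baseline, 0.784, 0.125, 1.55 and 0.556 at 0dpr, 98.7, 47.7, 46.3 and 292 at 2dpr, 12.9, 19.8 and 8.34 at 5dpr and 80.1, 101.2, 57.1 and 91.9 at 14dpr. At both ages the 5dpr libraries lay below those of 2dpr and 14dpr without overlap. Cxcl2 rose by 4.68 ± 0.63 SE and 7.27 ± 0.726 SE from 0dpr to 2dpr, changed by -2.47 ± 0.528 SE and -3.14 ± 0.588 SE to 5dpr, and rose by 3.17 ± 0.538 SE and 2.59 ± 0.575 SE to 14dpr (log2, immature and mature, adjusted p from 2.38e-10 to 0.00585). Of these, the immature rise to 2dpr was 6.53 without immature 0dpr replicate 1, the mature rise was 7.96 without mature 0dpr replicate 3 and 6.35 without mature 2dpr replicate 4, and the mature change to 5dpr was -2.23 without mature 2dpr replicate 4. The rise to 14dpr in mature mice was lost without mature 5dpr replicate 4 (0.06). At 0dpr immature Cxcl2 was called higher on 64 against 3 reads, a ratio of 24.4-fold (95% counting interval 7.98 to 121), in which the interval covers counting error only. That call rested on single libraries, and was lost without immature 0dpr replicate 1 (0.296), immature baseline replicate 2 (0.0628), immature baseline replicate 3 (0.0526) and immature baseline replicate 6 (0.0748) or with the replicate block (0.105) or with only the libraries compared (0.119).

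Cxcl3 had no read in any immature library at baseline or 0dpr. It read 15.0, 18.1, 18.2 and 10.9 CPM at 2dpr, 6.98, 5.76, 1.96 and 5.03 at 5dpr and 24.1, 27.4, 29.3 and 18.8 at 14dpr, and in mature mice 41.3, 18.5, 63.7 and 69.0 at 2dpr, 5.87, 14.4 and 4.74 at 5dpr and 19.2, 19.6, 21.3 and 21.7 CPM at 14dpr. The increase from 0dpr to 2dpr was at least 173-fold in immature mice (615 reads against a floor of 3 reads over the group) and 1568-fold (95% counting interval 281 to 61960.4) in mature mice, where 2780 reads were set against 1, a read of mature 0dpr replicate 4. The fitted log2 value there was 10.07, or 11.95 without mature 0dpr replicate 4, and depends on the small count that the fit adds. Cxcl3 rose from 5dpr to 14dpr in immature mice (log2 fold change 2.38 ± 0.381 SE, adjusted p = 0.000273), and the mature value was 1.28 ± 0.394 SE (adjusted p = 0.0614). The difference between the ages in that change was 1.10 ± 0.531 SE (adjusted p = 1). Cxcl5 (LIX, a neutrophil attractant made by epithelial and stromal cells) read 0, 0.616, 0.182 and 0.139 CPM at 0dpr and 15.4, 37.5, 53.5 and 16.1 CPM at 2dpr in the immature group, and 0, 1.37, 0.332 and 0.972 at 0dpr and 78.5, 24.2, 83.6 and 82.6 CPM at 2dpr in the mature group. It rose at both ages (6.92 ± 0.733 SE and 6.60 ± 0.646 SE, or 7.89 without immature 0dpr replicate 2 and 7.24 without mature 0dpr replicate 2). Its decrease to 5dpr in mature mice was -2.65 without mature 5dpr replicate 3 (log2), and was lost without mature 2dpr replicate 1 (0.0668), mature 2dpr replicate 3 (0.0663), mature 2dpr replicate 4 (0.066), mature 5dpr replicate 1 (0.178) and mature 5dpr replicate 4 (0.207) or with only the libraries compared (0.257).

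The receptors for these ligands followed another course. Cxcr2 (the main neutrophil chemokine receptor; ENSMUSG00000026180, chr1:74153989-74161246) read 55.2, 34.0, 35.0 and 34.9 CPM at baseline, 10.0, 28.7, 4.1 and 13.1 at 0dpr, 16.3, 42.3, 36.8 and 24.0 at 2dpr and 30.8, 22.7, 23.2 and 38.0 at 14dpr in immature mice. Mature libraries read 51.2, 59.3, 107 and 41.6 at baseline, 15.1, 31.1, 9.42 and 21.8 at 0dpr, 60.1, 35.3, 69.7 and 108 at 2dpr and 27.5, 38.5, 20.7 and 37.1 CPM at 14dpr. The 0dpr libraries lay below all baseline libraries at both ages, and no stage after resection exceeded baseline without overlap. Cxcr2 fell by 1.52 on the log2 scale at 0dpr in immature mice (SE 0.434, adjusted p = 0.0233) and by 1.75 in mature mice (adjusted p = 0.00322), and then rose by 1.10 ± 0.433 SE and 1.82 ± 0.429 SE to 2dpr. The immature call for 0dpr was lost without immature 0dpr replicate 1 (0.0694), immature 0dpr replicate 3 (0.126) and immature baseline replicate 2 (0.0778) or with the replicate block (0.0514) or with only the libraries compared (0.123). That for 2dpr was lost without immature 0dpr replicate 1 (0.0957), immature 0dpr replicate 3 (0.161), immature 0dpr replicate 4 (0.0723), immature 2dpr replicate 2 (0.123) and immature 2dpr replicate 3 (0.0906) or with only the libraries compared (0.0945) or with RLE size factors (0.0503). The immature values were -2.20 without immature 0dpr replicate 2 for 0dpr and 1.78 without immature 0dpr replicate 2 for 2dpr. In mature mice Cxcr2 fell to 5dpr (log2 fold change -2.003 ± 0.472 SE, adjusted p = 0.00332; -2.61 without mature 5dpr replicate 3) and was below baseline at 14dpr (log2 fold change -1.07 ± 0.417 SE, adjusted p = 0.0452), the second call being lost without mature 14dpr replicate 1 (0.101), mature 14dpr replicate 3 (0.132), mature 14dpr replicate 4 (0.0556), mature baseline replicate 2 (0.0589) and mature baseline replicate 3 (0.233) or with all genes that had at least 1 count (0.0525). Cxcr1, the second receptor of this type, had a mean of at most 3.0 CPM in any group and rose to 2dpr in immature mice on 61 against 2 reads, a ratio of 25.8-fold (95% counting interval 6.84 to 218), and its mature rise was lost without mature 2dpr replicate 4 (0.101) or with only the libraries compared (0.104). The 8 neutrophil markers (Ly6g, Camp and S100a8 among them) had a summed level of 6485 to 10850.3 CPM in immature mice at baseline, 873 to 6411 at 0dpr, 1220.5 to 3236 at 2dpr and 1434 to 3049 at 14dpr. Of the 8, 1 rose and none fell at 2dpr against 0dpr in immature mice, 1 rose and 1 fell in mature mice, and 7 were below baseline at 14dpr at both ages, while Cxcl1, Cxcl2, Cxcl3 and Cxcl5 were above it. Their part in the Cxcr2 values was not tested.

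The monocyte ligands Ccl2, Ccl7 and Ccl12 had their highest mean levels at 2dpr at both ages. Ccl2 (MCP-1, the main attractant of inflammatory monocytes; ENSMUSG00000035385, chr11:82035571-82037453) read 0.571, 0.618, 1.25 and 1.44 CPM at baseline, 4.63, 3.7, 5.74 and 3.9 at 0dpr, 230.0, 303, 375 and 324 at 2dpr, 64.2, 83.4, 51.7 and 49.7 at 5dpr and 45.0, 40.5, 35.7 and 16.3 at 14dpr in immature mice. In mature mice it read 0.838, 1.09, 1.58 and 0.449 at baseline, 3.45, 2.49, 3.77 and 3.75 at 0dpr, 798, 665, 298 and 356 at 2dpr, 121, 161 and 59.7 at 5dpr and 50.5, 30.8, 47.8 and 54.1 CPM at 14dpr. The libraries of the first 3 stages formed separate, rising ranges at both ages, and those of 2dpr, 5dpr and 14dpr formed separate, falling ranges. Ccl2 rose 4.59-fold at 0dpr (adjusted p = 0.00293) and then 67.7-fold to 2dpr (adjusted p = 5.42e-15) in immature mice, and 3.32-fold (adjusted p = 0.00688) and 157-fold (adjusted p = 1.94e-16) in mature mice. The immature call at 0dpr was lost with only the libraries compared (0.0614). Its decrease from 5dpr to 14dpr passed the test in mature mice (log2 fold change -1.31 ± 0.308 SE, adjusted p = 0.00964) but not without mature 5dpr replicate 3 (0.134), and the immature value was -0.86 ± 0.293 SE (adjusted p = 0.11). The difference between the ages in this step was 0.46 ± 0.425 SE (adjusted p = 1).

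Ccl7 (MCP-3, which also binds Ccr1 and Ccr3; ENSMUSG00000035373, chr11:82045712-82047525) ran in parallel with Ccl2. It read 5.53, 2.59, 5.1 and 1.81 CPM at 0dpr, 156, 238, 227 and 237 at 2dpr and 33.0, 34.1, 23.7 and 10.9 at 14dpr in the immature group, and 3.45, 1.12, 2.22 and 2.78 at 0dpr, 628, 485, 277 and 237 at 2dpr and 51.6, 40.2, 37.0 and 52.5 CPM at 14dpr in the mature group. The rise to 2dpr was 5.82 ± 0.413 SE and 7.43 ± 0.449 SE on the log2 scale. The earlier rise at 0dpr held with each library left out in immature mice (log2 fold change 2.24 ± 0.54 SE, adjusted p = 0.00844) and was lost with the replicate block (0.0531) or with only the libraries compared (0.104), and in mature mice (log2 fold change 1.64 ± 0.585 SE, adjusted p = 0.0402) was lost without mature 0dpr replicate 1 (0.12), mature 0dpr replicate 3 (0.0703), mature 0dpr replicate 4 (0.0894), mature baseline replicate 1 (0.069), mature baseline replicate 2 (0.119) and mature baseline replicate 3 (0.0975). Ccl12 (MCP-5, found in rodents) read 0.448, 1.11, 0.455 and 0 CPM at 0dpr, 24.1, 51.3, 44.0 and 41.7 at 2dpr, 13.3, 13.9, 13.9 and 12.4 at 5dpr and 4.39, 6.59, 5.42 and 2.02 at 14dpr in the immature group, and 0.941, 0.748, 0.222 and 0.833 at 0dpr, 135, 86.3, 43.7 and 63.7 at 2dpr, 19.2, 36.6 and 14.1 at 5dpr and 6.99, 6.26, 6.46 and 8.93 CPM at 14dpr in the mature group. It was the single gene that fell in every step after 2dpr at both ages (-1.59 ± 0.365 SE and -1.82 ± 0.398 SE to 5dpr, -1.53 ± 0.388 SE and -1.70 ± 0.394 SE to 14dpr). Its immature rise to 2dpr (6.26 ± 0.519 SE) was 6.96 without immature 0dpr replicate 2. Its mature decrease to 5dpr was lost with only the libraries compared (0.0507). The last decrease was lost without immature 14dpr replicate 1 (0.0552) and immature 14dpr replicate 4 (0.104) in immature mice and without mature 5dpr replicate 3 (0.147) in mature mice.

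Ccl8 (MCP-2, in the mouse a ligand of Ccr8) had no call from 2dpr to 5dpr, while its neighbours Ccl2, Ccl7 and Ccl12 fell. It read 1.94, 1.13, 1.25 and 1.63 CPM at baseline, 75.9, 206, 155 and 36.2 at 2dpr, 229, 276, 194 and 165 at 5dpr and 196, 64.6, 100.1 and 54.0 at 14dpr in the immature group, and 3.56, 4.02, 5.32 and 5.95 at baseline, 524, 161, 151 and 417 at 2dpr, 237, 419 and 163 at 5dpr and 156, 179, 118 and 262 CPM at 14dpr in the mature group. The ranges of 2dpr and 5dpr overlapped at both ages, and the change to 5dpr was 0.87 ± 0.42 SE (adjusted p = 0.24) and -0.20 ± 0.449 SE (adjusted p = 0.823). At 14dpr Ccl8 was above baseline by 6.11 ± 0.58 SE and 5.25 ± 0.522 SE on the log2 scale, with no overlap. Ccr8, its receptor, had means of at most 0.693 CPM and no call at any step.

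Ccr2 (the monocyte receptor for Ccl2; ENSMUSG00000049103, chr9:124101950-124113557) read 31.1, 77.8, 50.6 and 33.1 CPM at 0dpr and 361, 574, 557 and 347 CPM at 2dpr in the immature group, and 30.9, 90.6, 42.8 and 59.3 at 0dpr and 754, 535, 917 and 696 CPM at 2dpr in the mature group. In mature mice it had first fallen at 0dpr (log2 fold change -0.83 ± 0.264 SE, adjusted p = 0.0211), a call lost without mature 0dpr replicate 1 (0.115), mature 0dpr replicate 3 (0.0923), mature baseline replicate 2 (0.104) and mature baseline replicate 3 (0.0595) or with only the libraries compared (0.0858). It rose to 2dpr without overlap (log2 fold change 3.25 ± 0.283 SE, adjusted p = 1.96e-11, and in mature mice log2 fold change 3.70 ± 0.288 SE, adjusted p = 9.02e-13), fell to 5dpr (-1.67 ± 0.265 SE and -2.06 ± 0.297 SE), and at 14dpr was above baseline in immature mice (log2 fold change 1.00 ± 0.263 SE, adjusted p = 0.00308), and the mature value was 0.38 ± 0.26 SE (adjusted p = 0.281). Whether the ages differed in the change from baseline to 14dpr was not tested. Ccr1 (a receptor for Ccl3, Ccl5, Ccl6 and Ccl9 on monocytes and neutrophils) read 46.3, 39.7, 43.7 and 41.7 CPM at baseline, 24.1, 29.7, 15.4 and 14.1 at 0dpr and 134, 210.4, 223 and 159.6 at 2dpr in the immature group, and 46.6, 40.2, 73.5 and 34.6 at baseline, 16.9, 26.7, 15.7 and 18.9 at 0dpr and 316, 247, 351 and 302 CPM at 2dpr in the mature group. The 3 stages did not overlap at either age. Ccr1 fell by 1.05 and 1.32 on the log2 scale at 0dpr and rose by 3.13 ± 0.26 SE and 3.96 ± 0.269 SE to 2dpr, with the immature decrease at 0dpr lost without immature 0dpr replicate 3 (0.0518) or with only the libraries compared (0.0756). Cx3cr1 (the fractalkine receptor of patrolling monocytes and macrophages) read 5.68, 14.3, 5.83 and 4.59 CPM at 0dpr, 61.6, 49.98, 40.0 and 81.3 at 2dpr, 56.3, 59.2, 49.2 and 45.8 at 5dpr and 33.4, 31.8, 30.4 and 23.05 at 14dpr in the immature group, and 6.27, 11.1, 9.42 and 14.0 at 0dpr, 48.7, 74.2, 52.1 and 34.7 at 2dpr, 55.5, 35.5 and 52.2 at 5dpr and 29.2, 27.4, 34.1 and 37.4 CPM at 14dpr in the mature group. Unlike Ccr1 and Ccr2, it had no call from 2dpr to 5dpr (-0.15 ± 0.26 SE and -0.13 ± 0.28 SE, adjusted p = 0.839 and 0.803), a contrast between genes that was not tested. Of the 10 monocyte and macrophage markers, 10 rose at 2dpr in immature and 9 in mature mice, and 6 and 5 fell to 5dpr. Their part in the receptor values was not tested.

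Among the other CC ligands of myeloid cells and lymphocytes, Ccl6, Ccl9, Ccl3 and Ccl4 rose to 2dpr at both ages. Ccl6 and Ccl9, macrophage and myeloid ligands of Ccr1 in rodents, reached means of 1187 ± 428 and 758 ± 193 CPM in immature and 1558 ± 495 and 1037 ± 343 CPM in mature mice at 2dpr (SD, n = 4), 15.3-fold, 13.7-fold, 22.8-fold and 29.4-fold above 0dpr. Ccl3 and Ccl4 (MIP-1 alpha and beta) had a course like that of Cxcl2. Ccl3 read 1.05, 0.123, 0.364 and 0.556 CPM at 0dpr, 26.7, 21.9, 45.9 and 32.6 at 2dpr, 9.68, 11.8, 7.32 and 6.42 at 5dpr and 40.7, 33.3, 30.1 and 29.0 at 14dpr in the immature group, and 0.784, 1.62, 1.33 and 1.53 at 0dpr, 56.1, 35.4, 11.9 and 117 at 2dpr, 9.75, 14.9 and 6.33 at 5dpr and 29.2, 34.7, 21.3 and 43.2 CPM at 14dpr in the mature group. It rose 63.2-fold and 41.1-fold to 2dpr, fell to 5dpr (-1.87 ± 0.393 SE and -2.41 ± 0.434 SE) and rose again to 14dpr (log2 fold change 1.93 ± 0.393 SE, adjusted p = 0.00265, and in mature mice log2 fold change 1.63 ± 0.423 SE, adjusted p = 0.0207), the mature rise being lost without mature 14dpr replicate 4 (0.062), mature 5dpr replicate 1 (0.0863) and mature 5dpr replicate 4 (0.14). On the log2 scale the mature change to 2dpr was 5.36, or 4.69 without mature 2dpr replicate 4, and that to 5dpr was -1.74 without mature 2dpr replicate 4 and was lost with only the libraries compared (0.0943). Ccl4 read 14.7, 15.2, 26.0 and 19.0 CPM at 2dpr, 4.92, 5.63, 3.96 and 3.21 at 5dpr and 25.5, 17.6, 19.3 and 13.4 at 14dpr in the immature group, and 42.6, 26.0, 15.0 and 76.2 at 2dpr, 7.16, 10.8 and 5.97 at 5dpr and 17.5, 23.7, 10.9 and 28.2 CPM at 14dpr in the mature group. Its second rise passed the test in immature mice (log2 fold change 2.11 ± 0.401 SE, adjusted p = 0.0012), and the mature value was 1.32 ± 0.418 SE (adjusted p = 0.0641, difference between the ages 0.79 ± 0.562 SE, adjusted p = 1). Ccl5 (RANTES, made largely by T cells and NK cells) was low throughout and is described with the age comparison.

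**Figure D3:**
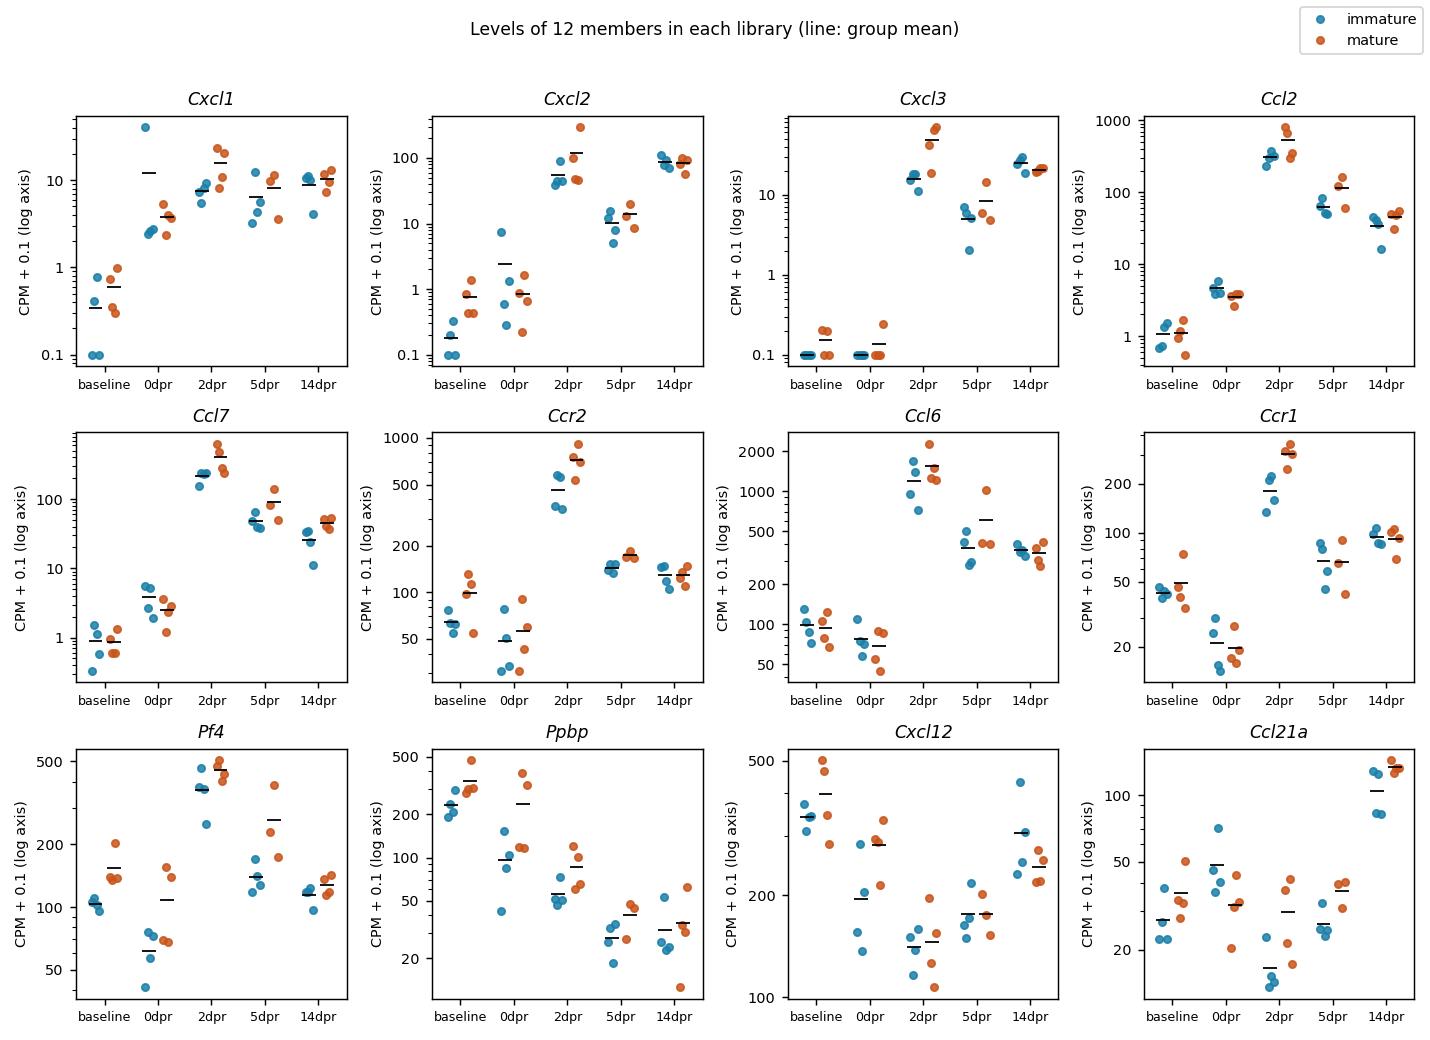
Level of 12 genes in each library (points, CPM plus 0.1 on log axes) at the 5 stages in immature and mature mice, with a line at each group mean. Cxcl2 and Cxcl3 are high at 2dpr and 14dpr and lower at 5dpr, Ccl2 and Ccl7 are highest at 2dpr, and Ppbp is lower at 2dpr than at baseline while Pf4 is higher.

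The 2 platelet chemokines parted after surgery. Pf4 (platelet factor 4; ENSMUSG00000029373, chr5:90772435-90773383) and Ppbp (pro-platelet basic protein; ENSMUSG00000029372, chr5:90768518-90770063) are both stored in platelet granules, and both were among the leading transcripts at baseline. In immature mice Pf4 read 105, 110.2, 102 and 95.7 CPM at baseline, 41.1, 75.7, 57.1 and 72.3 at 0dpr, 376, 463, 366 and 249.6 at 2dpr and 118, 119, 123 and 97.0 at 14dpr, and Ppbp read 191, 234, 208 and 297 at baseline, 42.1, 152, 84.5 and 104 at 0dpr, 51.4, 46.4, 72.9 and 50.6 at 2dpr and 25.6, 53.2, 22.8 and 23.8 CPM at 14dpr. In mature mice Pf4 read 139, 135, 203 and 137 at baseline, 69.6, 156, 67.7 and 139.9 at 0dpr, 477, 506, 403 and 435 at 2dpr and 135, 114, 118 and 143 CPM at 14dpr, and Ppbp read 282, 301, 475 and 305 at baseline, 117, 389, 116 and 320.3 at 0dpr, 119, 60.1, 101.03 and 65.4 at 2dpr and 12.4, 34.1, 30.1 and 62.4 CPM at 14dpr. All 2dpr libraries lay above baseline for Pf4 and below it for Ppbp, at both ages. Pf4 rose from 0dpr to 2dpr (log2 fold change 2.56 ± 0.242 SE, adjusted p = 1.21e-10, and in mature mice log2 fold change 2.07 ± 0.237 SE, adjusted p = 4.86e-09), while Ppbp fell in mature mice (log2 fold change -1.45 ± 0.388 SE, adjusted p = 0.00226) and had a value of -0.79 ± 0.387 SE in immature mice (adjusted p = 0.0968). The ratio of Pf4 to Ppbp was 0.322 to 0.551 in immature mice at baseline and 4.93 to 9.99 at 2dpr, and 0.428 to 0.493 and 3.99 to 8.42 in mature mice. At 14dpr Ppbp was below baseline (log2 fold change -2.89 ± 0.412 SE and -3.29 ± 0.417 SE), and the Pf4 values of 0.14 ± 0.229 SE and -0.27 ± 0.229 SE did not pass the test. The 6 megakaryocyte and platelet markers all fell at 2dpr at both ages, with a summed 37.3 to 121 CPM at 0dpr and 7.62 to 32.6 CPM at 2dpr in immature mice and 104 to 289 and 11.8 to 34.2 CPM in mature mice, and their part in the Ppbp values was not tested. The immature decreases at 0dpr were lost without immature 0dpr replicate 1 (0.117), immature 0dpr replicate 3 (0.132), immature baseline replicate 2 (0.0719), immature baseline replicate 3 (0.0639) and immature baseline replicate 6 (0.0608) or with the replicate block (0.0839) or with only the libraries compared (0.0872) for Pf4 and without immature 0dpr replicate 1 (0.103), immature 0dpr replicate 3 (0.114), immature baseline replicate 3 (0.051) and immature baseline replicate 6 (0.0953) or with the replicate block (0.105) or with only the libraries compared (0.0923) for Ppbp. The mature decreases of Pf4 were lost without mature 2dpr replicate 1 (0.0511), mature 2dpr replicate 2 (0.0566), mature 5dpr replicate 1 (0.121) and mature 5dpr replicate 4 (0.21) or with only the libraries compared (0.139) for 5dpr and without mature 5dpr replicate 3 (0.196) for 14dpr.

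Interferon-inducible ligands of Cxcr3 rose at different stages. Cxcl10 (IP-10) went from a mean of 1.53 ± 0.872 CPM at 0dpr to 29.4 ± 18.2 CPM at 2dpr in immature and from 1.86 ± 0.494 to 32.0 ± 22.3 CPM in mature mice (SD, n = 4), and rose without overlap (4.24 ± 0.617 SE and 4.09 ± 0.606 SE). Cxcl9 (MIG, induced by interferon gamma) read 0.837, 5.97, 11.2 and 5.11 CPM at 2dpr and 15.2, 19.2, 24.3 and 21.0 CPM at 5dpr in the immature group, and 11.1, 5.2, 6.22 and 3.1 at 2dpr and 19.5, 20.7 and 20.8 CPM at 5dpr in the mature group. The stages did not overlap, and Cxcl9 rose in both (log2 fold change 1.78 ± 0.485 SE, adjusted p = 0.017, and in mature mice log2 fold change 1.68 ± 0.504 SE, adjusted p = 0.021), although the calls were lost without immature 2dpr replicate 1 (0.0598) and immature 5dpr replicate 4 (0.055) and without mature 2dpr replicate 4 (0.0649), mature 5dpr replicate 3 (0.0515) and mature 5dpr replicate 4 (0.0611) or with only the libraries compared (0.0554). Cxcl11 had means of at most 0.608 CPM and no call. Cxcr3 (their receptor on effector T cells) had means of 1.19 to 5.14 CPM and no call between stages. Cxcl10 shares exon sequence with Art3 on the opposite strand, and the strand setting of the counting is not given in the sources used here. Exon sequence is also shared by Cxcl16 with Zmynd15, Cxcr5 with Bcl9l, Ccr9 with Slc6a20a, Ackr1 with Cadm3, Xcl1 with Gm20743 and Cx3cr1 with Gm33858, so the counts of these members are uncertain.

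Among the eosinophil genes, Ccr3 (the eotaxin receptor) read 21.9, 21.6, 18.4 and 22.2 CPM at baseline, 4.03, 16.5, 5.64 and 5.29 at 0dpr and 5.36, 9.43, 5.75 and 7.01 at 14dpr in the immature group, and 33.6, 17.8, 28.5 and 14.0 at baseline, 2.67, 15.2, 5.1 and 14.4 at 0dpr and 1.81, 10.7, 4.57 and 5.71 CPM at 14dpr in the mature group. It was below baseline at 14dpr without overlap (log2 fold change -1.61 ± 0.437 SE, adjusted p = 0.00428, and in mature mice log2 fold change -2.04 ± 0.444 SE, adjusted p = 0.000415). Its earlier decrease at 0dpr (-1.41 ± 0.435 SE and -1.32 ± 0.432 SE) was lost without immature 0dpr replicate 1 (0.103), immature 0dpr replicate 3 (0.137), immature 0dpr replicate 4 (0.0833), immature baseline replicate 2 (0.0674), immature baseline replicate 3 (0.0575) and immature baseline replicate 6 (0.0742) or with the replicate block (0.0766) or with only the libraries compared (0.106) in immature and without mature 0dpr replicate 1 (0.11), mature 0dpr replicate 3 (0.107), mature baseline replicate 1 (0.0965) and mature baseline replicate 3 (0.0628) or with only the libraries compared (0.0583) in mature mice, and the immature value was -2.11 without immature 0dpr replicate 2. Ccl24 (eotaxin-2) rose to 2dpr in immature mice (log2 fold change 1.73 ± 0.494 SE, adjusted p = 0.00439) and had a mature value of 1.00 ± 0.494 SE (adjusted p = 0.0948), and Ccl11 (eotaxin-1), with group means of 11.03 to 27.3 CPM, rose at 0dpr in mature mice (log2 fold change 0.78 ± 0.282 SE, adjusted p = 0.0436; immature 0.05 ± 0.28 SE), a call lost without mature 0dpr replicate 1 (0.176), mature 0dpr replicate 3 (0.0734), mature 0dpr replicate 4 (0.0713), mature baseline replicate 1 (0.101), mature baseline replicate 2 (0.157) and mature baseline replicate 3 (0.0858) or with the replicate block (0.0557) or with all genes that had at least 1 count (0.0671). The 3 eosinophil markers Epx, Prg2 and Siglecf had a summed 382 to 756 CPM in immature and 265 to 1770.2 CPM in mature mice at baseline and 49.9 to 232 and 16.0 to 100.8 CPM at 14dpr, where 2 and 3 of them were lower than baseline. Their part in the Ccr3 values was not tested.

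The stromal ligand Cxcl12 (SDF-1, which holds haematopoietic cells in the marrow; ENSMUSG00000061353, chr6:117168535-117181367) fell after resection at both ages. It read 373, 310.2, 339.6 and 343 CPM at baseline, 156, 283, 137 and 204 at 0dpr, 150.3, 117, 138 and 159 at 2dpr, 163, 149.9, 172 and 218 at 5dpr and 232, 433, 250.1 and 307 at 14dpr in immature mice. In mature mice it read 502, 465, 345 and 283 at baseline, 293, 288, 215 and 334 at 0dpr, 196, 126, 107 and 155 at 2dpr, 201, 175 and 152 at 5dpr and 219, 272, 221 and 255 CPM at 14dpr. All 2dpr libraries lay below all baseline libraries at both ages. The step at which it fell was 0dpr in immature mice (log2 fold change -0.81 ± 0.209 SE, adjusted p = 0.0123) and 2dpr in mature mice (log2 fold change -0.95 ± 0.209 SE, adjusted p = 0.000272), and the 2 ages did not differ past the test in either step (adjusted p = 0.828 and 0.538). It rose again from 5dpr to 14dpr in immature mice (log2 fold change 0.80 ± 0.209 SE, adjusted p = 0.0245), a call lost without immature 14dpr replicate 2 (0.188), immature 14dpr replicate 4 (0.0624), immature 5dpr replicate 2 (0.094), immature 5dpr replicate 3 (0.0876) and immature 5dpr replicate 4 (0.067), and in mature mice it was still below baseline at 14dpr (log2 fold change -0.72 ± 0.208 SE, adjusted p = 0.00634), where the immature value was -0.16 ± 0.207 SE. The difference between the ages in this change from baseline was not tested. The immature decrease at 0dpr was lost without immature 0dpr replicate 3 (0.094) or with only the libraries compared (0.0997).

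Cxcr4 (the signaling receptor for Cxcl12 on most blood cells) read 95.96, 94.1, 94.1 and 129 CPM at baseline, 37.0, 98.2, 17.02 and 50.9 at 0dpr and 81.1, 70.0, 84.0 and 97.2 at 2dpr in the immature group, and 127, 144, 144 and 92.4 at baseline, 35.6, 93.9, 34.5 and 59.2 at 0dpr and 78.3, 106, 89.6 and 92.9 CPM at 2dpr in the mature group. It fell at 0dpr at both ages, although immature 0dpr replicate 2 and mature 0dpr replicate 2 lay within the baseline range (log2 fold change -1.03 ± 0.289 SE, adjusted p = 0.0209, and in mature mice log2 fold change -1.19 ± 0.289 SE, adjusted p = 0.003). The immature decrease was lost without immature 0dpr replicate 1 (0.0729), immature 0dpr replicate 3 (0.113) and immature baseline replicate 6 (0.0767) or with the replicate block (0.0678) or with only the libraries compared (0.18) and had a value of -1.61 without immature 0dpr replicate 2. The later rise in immature mice was lost without immature 0dpr replicate 1 (0.129), immature 0dpr replicate 3 (0.216), immature 0dpr replicate 4 (0.0725), immature 2dpr replicate 1 (0.0624), immature 2dpr replicate 3 (0.0702) and immature 2dpr replicate 4 (0.105) or with only the libraries compared (0.163) or with RLE size factors (0.0675) or with DESeq2 (0.0599). In mature mice that rise was lost without mature 0dpr replicate 1 (0.155), mature 0dpr replicate 3 (0.164), mature 0dpr replicate 4 (0.0522), mature 2dpr replicate 2 (0.0905), mature 2dpr replicate 3 (0.051) and mature 2dpr replicate 4 (0.0595) or with only the libraries compared (0.0905) or with RLE size factors (0.0567). Ackr3 (an atypical receptor that removes Cxcl12) went the other way at 0dpr, from 38.0, 36.5, 35.2 and 32.8 at baseline to 70.8, 48.7, 87.0 and 83.9 CPM at 0dpr in immature and from 24.5, 31.2, 29.5 and 55.0 at baseline to 70.7, 42.7, 67.6 and 55.7 CPM at 0dpr in mature mice. The immature rise was without overlap and held with each library left out (log2 fold change 1.03 ± 0.26 SE, adjusted p = 0.0108), but was lost with the replicate block (0.06) or with only the libraries compared (0.0614), and the mature rise (log2 fold change 0.76 ± 0.259 SE, adjusted p = 0.0321) was lost without mature 0dpr replicate 1 (0.0912), mature 0dpr replicate 3 (0.0868), mature 0dpr replicate 4 (0.0559), mature baseline replicate 1 (0.124), mature baseline replicate 2 (0.0931) and mature baseline replicate 3 (0.0901). At 14dpr Ackr3 was above baseline, with means of 56.6 ± 10.0 CPM in immature and 73.4 ± 24.5 CPM in mature mice (SD, n = 4; 0.67 ± 0.259 SE and 1.07 ± 0.259 SE), and the immature call was lost without immature 14dpr replicate 1 (0.115), immature 14dpr replicate 2 (0.0686), immature 14dpr replicate 3 (0.107), immature baseline replicate 2 (0.0646), immature baseline replicate 3 (0.0671), immature baseline replicate 4 (0.0715) and immature baseline replicate 6 (0.102) or with the replicate block (0.128) or with RLE size factors (0.055). The 7 endothelial markers had a summed 447 to 504 CPM at baseline and 591 to 763 CPM at 0dpr in immature mice, with 5 of 7 higher at 0dpr at both ages, and their part in the Ackr3 values was not tested.

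Of the other stromal ligands, Cx3cl1 (fractalkine, the membrane-bound ligand of Cx3cr1) rose late. It read 4.08, 4.62, 3.52 and 5.23 CPM at 2dpr, 10.9, 14.8, 16.7 and 19.3 at 5dpr and 10.6, 10.7, 11.4 and 13.3 at 14dpr in the immature group, and 8.18, 10.48, 5.88 and 3.42 at 2dpr, 26.1, 20.8 and 18.5 at 5dpr and 11.6, 9.39, 13.5 and 10.49 CPM at 14dpr in the mature group. The 5dpr libraries lay above those of 2dpr without overlap (log2 fold change 1.83 ± 0.248 SE, adjusted p = 5.53e-06, and in mature mice log2 fold change 1.65 ± 0.253 SE, adjusted p = 1.8e-05). Its decrease to 14dpr in mature mice was lost without mature 14dpr replicate 1 (0.0508), mature 14dpr replicate 2 (0.0759), mature 14dpr replicate 4 (0.0565), mature 5dpr replicate 1 (0.132) and mature 5dpr replicate 3 (0.063) or with all genes that had at least 1 count (0.0576). Cxcl16, which like Cx3cl1 is anchored in the membrane and shed, rose 7.15-fold and 10.1-fold to 2dpr and had no call afterwards, with group means of 68.0 to 105 CPM from 2dpr to 14dpr. Cxcl14 rose to 2dpr in immature mice (log2 fold change 0.83 ± 0.247 SE, adjusted p = 0.00604) and fell to 5dpr (log2 fold change -0.90 ± 0.247 SE, adjusted p = 0.0169), a decrease lost without immature 2dpr replicate 3 (0.0974) and immature 5dpr replicate 4 (0.0998), and had no call in mature mice.

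Among the ligands of lymphoid tissue and barriers, Ccl21a rose late. Ccl21a (a Ccr7 ligand of lymphatic endothelium, which the counting may not separate from its near-identical copies) read 45.6, 36.2, 70.8 and 40.2 CPM at 0dpr, 22.8, 13.4, 15.2 and 14.2 at 2dpr, 24.6, 32.3, 22.9 and 24.6 at 5dpr and 129, 83.0, 124 and 81.7 at 14dpr in the immature group, and 20.2, 31.1, 43.3 and 32.9 at 0dpr, 37.2, 21.4, 41.9 and 17.2 at 2dpr, 39.4, 30.6 and 40.2 at 5dpr and 144, 126, 132 and 132 CPM at 14dpr in the mature group. All 14dpr libraries lay above all others at both ages. Ccl21a rose from 5dpr to 14dpr by 2.005 ± 0.258 SE (adjusted p = 7.44e-06) and 1.86 ± 0.282 SE (adjusted p = 7.26e-05), and fell to 2dpr in immature mice (log2 fold change -1.56 ± 0.26 SE, adjusted p = 6.97e-06), where the mature value was -0.13 ± 0.253 SE. The difference between these changes did not pass the quasi-likelihood test (adjusted p = 0.124) and passed with DESeq2. Ccr7 (its receptor on dendritic cells and lymphocytes) had its highest means at 14dpr, 10.3 ± 2.85 and 8.81 ± 2.65 CPM (SD, n = 4), with no call at any step. The 4 dendritic cell markers had a summed 33.7 to 50.1 and 49.6 to 62.6 CPM at baseline and 113 to 205 and 96.9 to 159 CPM at 14dpr, with 1 higher at each age and 1 lower in mature mice.

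Cxcl13 (the B-cell attractant of lymphoid follicles) was raised on the day of surgery. It read 1.14, 0.103, 0.34 and 0.0957 CPM at baseline, 3.44, 1.48, 2.55 and 3.76 at 0dpr and 1.57, 2.03, 1.59 and 0.232 at 2dpr in the immature group, and 0.943, 0.754, 0.887 and 0.561 at baseline, 2.2, 9.36, 9.09 and 2.5 at 0dpr and 0.496, 0.866, 0 and 1.62 CPM at 2dpr in the mature group. It rose at 0dpr (log2 fold change 2.74 ± 0.762 SE, adjusted p = 0.0199, and in mature mice log2 fold change 2.87 ± 0.708 SE, adjusted p = 0.0034) and fell to 2dpr in mature mice (log2 fold change -2.85 ± 0.693 SE, adjusted p = 0.000853), with the immature rise lost without immature baseline replicate 3 (0.068), immature baseline replicate 4 (0.05) and immature baseline replicate 6 (0.0768) or with the replicate block (0.0729) or with only the libraries compared (0.104). The immature rise was 3.91 without immature baseline replicate 2 and the mature decrease -3.59 without mature 2dpr replicate 4. Ccl22 (a Ccr4 ligand of macrophages and dendritic cells) rose to 2dpr at both ages (4.68 ± 0.645 SE and 3.94 ± 0.587 SE, or 6.09 without immature 0dpr replicate 1 and 4.60 without mature 0dpr replicate 2), and its partner Ccl17 rose in mature mice (log2 fold change 4.67 ± 0.909 SE, adjusted p = 5.68e-05; 5.29 without mature 0dpr replicate 4 and 4.02 without mature 2dpr replicate 1), with an immature value of 0.48 ± 0.8291 SE. Ccl17 was uneven at 2dpr, with 14.7, 1.91, 10.4 and 1.34 CPM in mature and 1.05, 1.35, 1.17 and 0.232 CPM in immature libraries. The difference between the ages in this change did not pass the quasi-likelihood test. The mature decrease of Ccl17 to 5dpr (log2 fold change -3.20) held in 5 of 7 fits with 1 library left out. Ccl20 (the Ccr6 ligand) had no read at baseline or 0dpr at either age, and its 22 and 15 reads at 2dpr made an increase of at least 6.2-fold in immature and at least 2.82-fold in mature mice, where the call was lost with only the libraries compared (0.0818).

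Ccl27a, a skin chemokine whose counts may include near-identical copies and the neighbour Il11ra1, read 5.53, 5.05, 7.83 and 7.09 CPM at 0dpr and 1.99, 2.48, 3.6 and 2.44 CPM at 2dpr in the immature group, and 5.02, 6.24, 5.32 and 6.95 at 0dpr and 2.15, 1.47, 0 and 2.08 CPM at 2dpr in the mature group. It fell at both ages without overlap (log2 fold change -1.27 ± 0.451 SE, adjusted p = 0.021, and in mature mice log2 fold change -1.98 ± 0.463 SE, adjusted p = 0.000558), and rose to 4.4, 3.15 and 5.82 CPM at 5dpr in mature mice. The immature decrease was lost without immature 2dpr replicate 1 (0.0606), the mature decrease with only the libraries compared (0.08), and the mature rise without mature 5dpr replicate 1 (0.0539) and mature 5dpr replicate 4 (0.123) or with only the libraries compared (0.467). Ccl25, a thymic and gut ligand that overlaps Elavl1, read 10.4, 11.4, 9.65 and 13.2 CPM at baseline, 10.2, 10.2, 11.7 and 9.18 at 0dpr, 5.13, 8.1, 8.29 and 4.76 at 2dpr and 7.68, 5.48, 6.94 and 6.8 at 14dpr in immature mice, fell to 2dpr (log2 fold change -0.65 ± 0.218 SE, adjusted p = 0.0147) and was below baseline at 14dpr (-0.73 ± 0.217 SE; lost with the replicate block (0.0517) or with all genes that had at least 1 count (0.0537)). The decrease to 2dpr was lost without immature 2dpr replicate 1 (0.0602) and immature 2dpr replicate 4 (0.0672) or with only the libraries compared (0.0791) or with all genes that had at least 1 count (0.0656). Xcl1, made by NK and T cells, had 15 reads in mature mice at 0dpr, 3 at 2dpr and 39 at 5dpr, ratios of 8.86-fold (95% counting interval 2.51 to 47.8) downward and 15.6-fold (95% counting interval 4.96 to 79.0) upward, with both calls lost with only the libraries compared (adjusted p = 0.0536 and 0.0851). Ccl19 had means of at most 0.746 CPM and no call.

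Lymphocyte receptors were low and few of them changed. Cxcr5 (the follicular receptor for Cxcl13) read 8.11, 6.7, 3.63 and 4.02 CPM at baseline, 0.523, 0.675, 0.921 and 0.813 at 2dpr and 1.46, 2.23, 1.08 and 1.81 at 14dpr in the immature group, and 7.65, 6.62, 2.27 and 2.58 at baseline, 2.89, 0.52, 0 and 2.59 at 2dpr and 0.723, 1.34, 0.223 and 0.415 CPM at 14dpr in the mature group. It was below baseline at 14dpr at both ages without overlap (log2 fold change -1.76 ± 0.632 SE, adjusted p = 0.0309, and in mature mice log2 fold change -2.81 ± 0.689 SE, adjusted p = 0.00148), the immature call being lost without immature 14dpr replicate 1 (0.0716), immature 14dpr replicate 3 (0.0879), immature 14dpr replicate 4 (0.0559), immature baseline replicate 2 (0.0886) and immature baseline replicate 3 (0.0676). The 6 B-cell markers all fell from 0dpr to 2dpr at both ages, with a summed 33.4 to 148 CPM at 0dpr and 14.3 to 24.4 CPM at 2dpr in immature mice and 40.4 to 232 and 3.2 to 17.2 CPM in mature mice, and their part in the Cxcr5 values was not tested. Ccr9 (the receptor for Ccl25) read 6.6, 8.21, 6.51 and 4.94 CPM at baseline, 4.24, 2.99, 2.33 and 6.25 at 0dpr, 1.16, 0.866, 0 and 1.99 at 2dpr and 0.844, 2.01, 1.23 and 2.08 at 14dpr in mature mice, and fell to 2dpr (log2 fold change -1.87 ± 0.515 SE, adjusted p = 0.00291; -2.46 without mature 2dpr replicate 4; lost with only the libraries compared (0.121)), while the immature value was -0.14 ± 0.487 SE. Ccr6 fell to 2dpr in mature mice (log2 fold change -2.94 ± 0.906 SE, adjusted p = 0.00737; -3.58 without mature 2dpr replicate 4) from a mean below 1 CPM. Ccr4, Cxcr6 and Xcr1 had no call between stages and means of at most 0.526, 4.0 and 1.34 CPM. The 8 T and NK markers had a summed 36.5 to 64.0 CPM at baseline and 8.1 to 46.2 CPM at 2dpr in immature mice and 54.6 to 88.4 and 5.2 to 13.5 CPM in mature mice, with 1 and 5 of them lower at 2dpr than at 0dpr.

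The atypical and scavenging receptors differed from one another. Ackr1 (the Duffy antigen of venular endothelium and erythroid cells; ENSMUSG00000037872, chr1:173331886-173333750) read 8.34, 9.59, 8.85 and 12.2 CPM at baseline, 7.43, 6.42, 7.04 and 6.04 at 2dpr, 6.35, 6.13, 3.54 and 5.99 at 5dpr and 15.6, 14.7, 16.1 and 13.3 at 14dpr in the immature group, and 11.004, 9.14, 13.6 and 9.65 at baseline, 7.77, 6.93, 16.3 and 6.75 at 2dpr, 4.23, 7.21 and 5.75 at 5dpr and 14.7, 10.1, 10.9 and 11.3 CPM at 14dpr in the mature group. It rose from 5dpr to 14dpr in immature mice without overlap (log2 fold change 1.45 ± 0.301 SE, adjusted p = 0.00311), with a mature value of 1.03 ± 0.323 SE (adjusted p = 0.0636), and the difference between the ages was 0.43 ± 0.434 SE (adjusted p = 1). The 5 erythroid markers had a summed 1637 to 2508 CPM at 5dpr and 1769 to 4931 CPM at 14dpr in immature mice and 1977 to 3329 and 394 to 2812 CPM in mature mice, with none called at either age, after 4 in immature and 5 in mature mice had fallen to 2dpr. Ackr4 (a scavenger of Ccl19, Ccl21 and Ccl25, whose exons overlap Acad11) had means of 34.3 ± 5.05 CPM at baseline, 11.7 ± 3.92 on the day of surgery and 5.35 ± 3.06 after 2 days in the immature group, and 33.2 ± 4.15, 12.5 ± 2.97 and 5.78 ± 9.34 CPM in the mature group (SD, n = 4), where the mature libraries read 1.82, 0.346, 19.8 and 1.2 at 2dpr, and no step passed the test, the smallest adjusted p being 0.0623. Ccrl2 (which presents chemerin and does not signal) rose to 2dpr, fell to 5dpr and rose to 14dpr in immature mice (0.98 ± 0.259 SE, -0.90 ± 0.257 SE and 1.04 ± 0.257 SE), with the calls at 5dpr and 14dpr lost without immature 2dpr replicate 3 (0.133), immature 2dpr replicate 4 (0.0856), immature 5dpr replicate 4 (0.116) and immature 5dpr replicate 5 (0.0866) or with the replicate block (0.079) and without immature 5dpr replicate 4 (0.091) and immature 5dpr replicate 5 (0.0618) or with the replicate block (0.0524). Mature Ccrl2 also fell from 2dpr to 5dpr, a call that held in 3 of 7 fits with 1 library left out. Ackr2 (a scavenger of inflammatory CC chemokines) had no call and means of 3.45 to 10.8 CPM. Ccr1l1, a relative of Ccr1 on the same cluster, was called in mature mice at 2dpr on 66 against 2 reads, a ratio of 18.6-fold (95% counting interval 4.95 to 157), and that call was lost without mature 2dpr replicate 3 (0.0933).

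**Figure D4:**
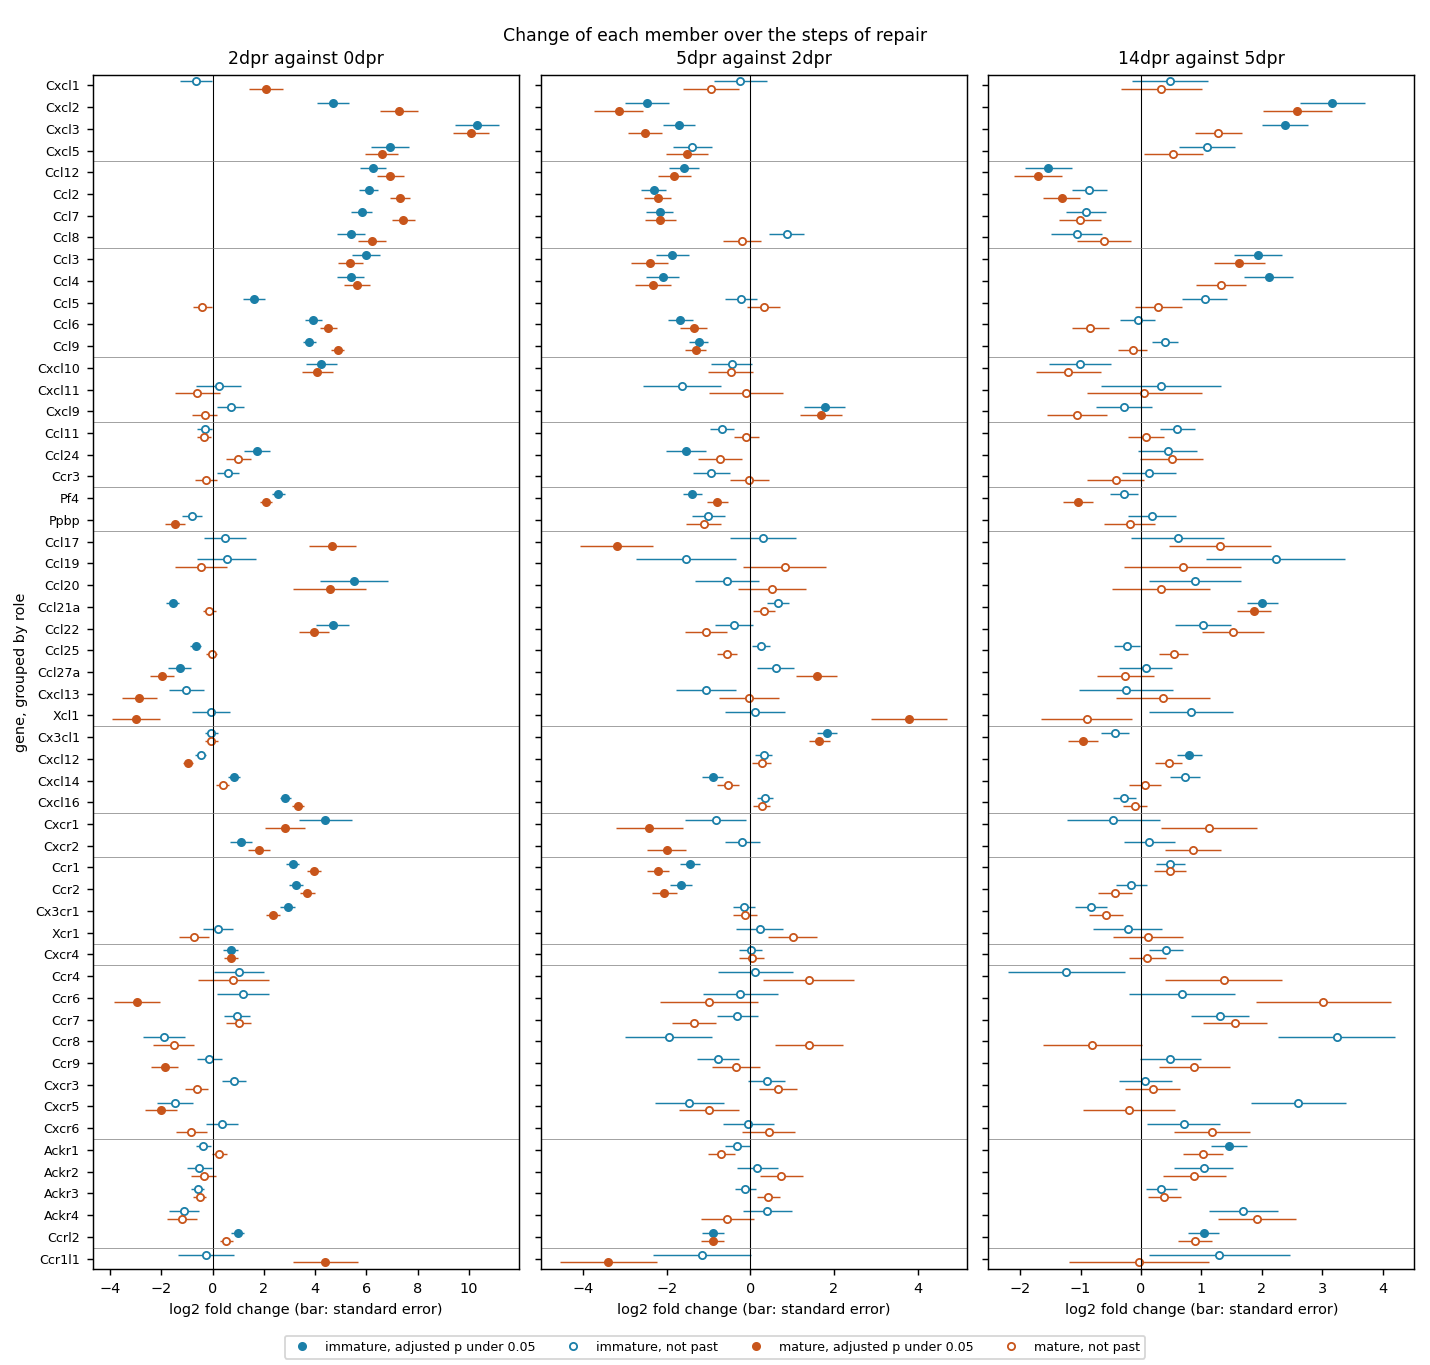
Log2 fold change of each of the 55 genes (rows, grouped by role) from 0dpr to 2dpr, 2dpr to 5dpr and 5dpr to 14dpr, in immature and mature mice, with bars for the standard error and filled points for an adjusted p under 0.05. Fitted values of genes with no or few reads in a group, such as Cxcl3 and Ccl20 at 0dpr, depend on the small count added by the fit.

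Immature and mature mice were compared at each stage. The quasi-likelihood test called none of the 55 genes at baseline (background 0.585% of all genes), at 5dpr (0%) or at 14dpr (0.00943%). At these stages 10, 14 and 2 of the 55 had an unadjusted p under 0.05, beside 2482, 1081 and 968 of all 21204 genes. DESeq2 called 2 of the 55 (Ccl8 and Cxcr3), 0 and 0. At 0dpr the quasi-likelihood test called Ccl5 alone (0.726%) and at 2dpr Cxcl3 alone (0.627%). There 15 and 20 of the 55 had an unadjusted p under 0.05, beside 2278 and 2812 of all 21204 genes. Ccl5 read 0.299, 2.1, 0.273 and 1.39 CPM at 0dpr in immature and 3.76, 3.87, 3.66 and 5.14 CPM at 0dpr in mature mice, and the ages did not overlap (log2 fold change -2.02 ± 0.415 SE, adjusted p = 0.00856). The value was -2.69 without immature 0dpr replicate 2, the call was lost without immature 0dpr replicate 1 (0.0622) or with only the libraries compared (0.522), and 5 genes were called at 0dpr without immature 0dpr replicate 2 and 2 without mature 0dpr replicate 1 or 3. From 6.05, 3.81, 2.5 and 2.11 CPM at baseline, immature Ccl5 fell at 0dpr (log2 fold change -1.84 ± 0.414 SE, adjusted p = 0.00517; -2.54 without immature 0dpr replicate 2; lost with only the libraries compared (0.153)), and the mature change from 7.34, 7.96, 5.72 and 4.71 CPM at baseline was -0.65 ± 0.366 SE (adjusted p = 0.209). Cxcl3 at 2dpr was lower in immature than in mature mice (log2 fold change -1.63 ± 0.356 SE, adjusted p = 0.0258), with mean levels of 15.5 ± 3.43 and 48.1 ± 23.1 CPM (SD, n = 4). Its lowest mature library exceeded the highest immature library, and the call was lost without immature 2dpr replicate 1 (0.0896), immature 2dpr replicate 4 (0.121), mature 2dpr replicate 3 (0.0604) and mature 2dpr replicate 4 (0.0664) or with only the libraries compared (0.366). The count at 2dpr rose to 4 without mature 2dpr replicate 4 and to 2 without mature 2dpr replicate 2. The median log2 difference of the 55 genes at 2dpr was -0.28, beside 0.04 over all genes.

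Over the mean of the 5 stages, 5 genes were lower in immature than in mature mice and none was higher, beside 2.45% of all genes called in either direction. These were Ccl8 (-0.96 ± 0.225 SE on the log2 scale), Ccl4 (-0.88 ± 0.238 SE), Ccl5 (-0.64 ± 0.171 SE), Ppbp (-0.63 ± 0.176 SE) and Pf4 (-0.56 ± 0.104 SE), with adjusted p from 0.00116 to 0.0426. Group by group, the immature minus mature value of Pf4 was -0.57 at baseline, -0.82 at 0dpr, -0.32 at 2dpr, -0.92 at 5dpr and -0.16 at 14dpr, and that of Ccl8 was -1.65, -0.60, -1.41, -0.34 and -0.79. For Ccl4 the values were -1.52, -0.85, -1.10, -0.87 and -0.09. For Ccl5 the values were -0.83, -2.02, -0.01, -0.55 and 0.22. For Ppbp the values were -0.55, -1.30, -0.64, -0.53 and -0.15. In 39 fits that each omitted another library, Ccl8 and Pf4 were called in 39 of 39, Ccl5 in 31, Ccl4 in 23 and Ppbp in 17. The count was 2 without mature 0dpr replicate 4 or mature 14dpr replicate 2. It was 3 without any one of immature baseline replicates 3 and 6, 0dpr replicates 3 and 4, 2dpr replicate 1, 5dpr replicate 4 and 14dpr replicate 4, and of mature baseline replicate 2, 2dpr replicate 1, 5dpr replicate 3 and 14dpr replicate 4. It was 8 without immature 0dpr replicate 2 and 10 without mature 2dpr replicate 3, where Ackr4 and Ccr9 were called higher in immature mice. The median log2 difference was -0.19, beside 0.00 over all genes. Of the monocyte and macrophage markers 2 of 10 were lower in immature mice in the same comparison, whereas none of the 6 megakaryocyte and platelet markers was called, and their part in these values was not tested.

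**Figure D5:**
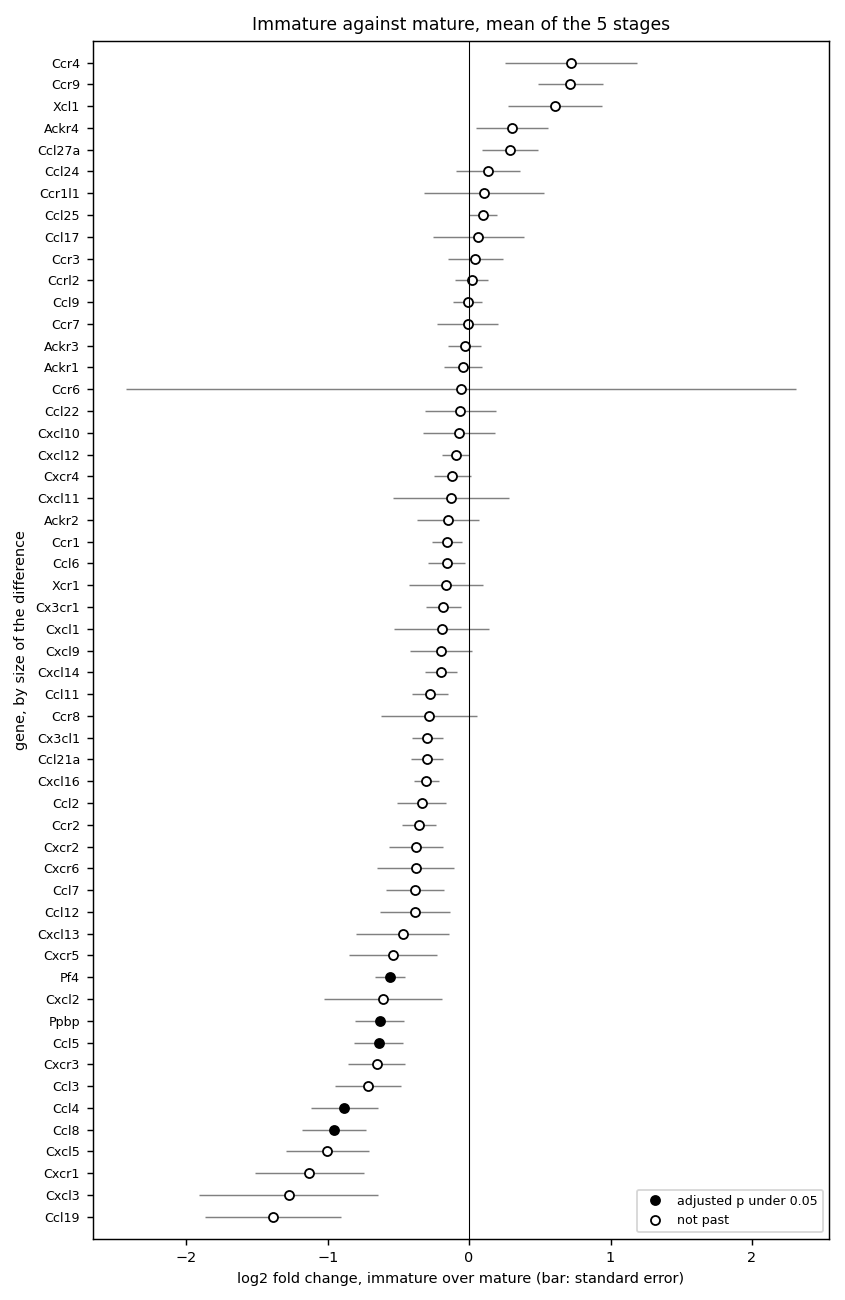
Log2 fold change of 54 genes between immature and mature mice, averaged over the 5 stages, with bars for the standard error and filled points for an adjusted p under 0.05 (Ccl20, with no reads in 4 groups, is left out). The 5 filled points, Ccl8, Ccl4, Ccl5, Ppbp and Pf4, all lie left of 0, on the side of higher levels in mature mice.

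No step of repair differed between the ages past the quasi-likelihood test for any of the 55 genes. The background of calls was 0.0141% for baseline to 0dpr, 0.0613% for 0dpr to 2dpr, 0% for 2dpr to 5dpr and 0% for 5dpr to 14dpr. For these steps 9, 15, 6 and 5 of the 55 genes had an unadjusted p under 0.05. Of all 21204 genes, 1712, 2382, 1715 and 901 had one. DESeq2 called 2 genes for the step from 0dpr to 2dpr, Ccl5 with the larger increase in immature mice and Ccl21a with the larger increase in mature mice, and none for the other steps. The quasi-likelihood count for that step was 1 without immature 0dpr replicate 2 and 1 without mature 2dpr replicate 4.

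Genes that act around the chemokines and their receptors were examined as lists. Of 25 genes that act downstream of chemokine receptors (Gnai2, Rac2 and Dock2 among them), 15 fell and 2 rose at 0dpr in immature mice and 20 fell in mature mice, beside 4.66% and 10.6% lower among all genes, and then 20 and 19 rose to 2dpr with none falling, beside 21.8% and 22.7% higher among all genes. From 2dpr to 5dpr 6 and 8 fell (background 3.68% and 6.38% lower), and at 14dpr 10 and 7 were above and 1 and 5 below baseline (background 16.4% and 17.1% higher, 15.1% and 16.4% lower). Of 15 inducers of chemokine transcription from the NF-kB and interferon pathways (Tnf, Il1b and Irf1 among them), 10 and 13 rose to 2dpr, and 10 and 7 were above baseline at 14dpr. Of 6 proteases that shed or cleave chemokines (Adam10, Dpp4 and Mmp9 among them), 3 rose and 1 fell to 2dpr at both ages. Among all genes 21.8% and 22.7% rose and 22.2% and 24.9% fell in that step in immature and mature mice. The median log2 fold change from 0dpr to 2dpr in immature and mature mice was 1.09 and 1.16 for the downstream genes, 1.17 and 1.19 for the inducers and 0.36 and 0.56 for the proteases, beside -0.04 and -0.05 over all genes. In no comparison between the ages at a single stage was a downstream gene or a protease called, and 1 inducer was lower in immature mice at baseline. The 5 osteoblast markers showed 2 lower at 2dpr in immature and 4 in mature mice and 2 higher from 5dpr to 14dpr at both ages, and the 5 fibroblast markers were all above baseline at 14dpr at both ages. The 20 skeletal muscle genes all fell from 0dpr to 2dpr at both ages, and 20 in immature and 16 in mature mice were below baseline at 14dpr.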

How the data were processed

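RNA was measured by bulk sequencing in 39 libraries of 10 groups, and mature 5dpr replicate 2, a further sample in the labels, was not analysed here. The deposited gene counts are raw reads per gene that the authors obtained with STAR 2.5.2a on GRCm38 (submitters' processing notes). The annotation release and the strand setting of the counting are not given in the sources used here. The authors also deposited a signal table of TMM-normalised CPM values after a filter on low counts, which kept 21204 genes, and the values recomputed from the counts differed from it by a relative 5e-15 at most. Sequencing took more than 1 run according to the labels, and runs could not be assigned to libraries.

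The counts of the 21204 genes were fitted in 1 model of age and stage with edgeR 4.0.16 (glmQLFit and glmQLFTest, TMM factors, R 4.3.3, limma 3.58.1), after the procedure had been tested on simulated counts. The study's own test was DESeq2, which was run here as an alternative (version 1.42.0). The standard error of a fold change was taken as its size divided by the square root of the F statistic. Groups were compared between consecutive stages, between 14dpr and baseline, between ages at each stage and over the mean of the stages, and for the interaction of age with each step. P-values measure the spread between these samples, since the labels do not tie every library to 1 animal. Other settings tried were RLE size factors, other filters on low counts, a replicate block, a muscle score from 20 genes as covariate, only the libraries compared, and each library left out. Leaving out mature 2dpr replicate 3, and immature 0dpr replicates 1 and 3 together, was chosen after seeing the data.

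The genes, the 3 pathway lists and the 12 marker lists were chosen with earlier results of these data known, and 1 further gene whose name meets the rule is not reported here. Values of each library are given for genes chosen by role and, in each comparison, for up to 5 called genes a direction with the largest fold change, a mean of at least 1 CPM and no overlap between groups. Ccl1, Ccl19-ps1, Ccl19-ps3, Ccl21b, Ccl26, Ccl27b, Ccl28, Ccr10, Cxcl15 and Cxcl17 were below the filter. Total counts per library were 6075355 to 21546977 (median 9092201), so that 1 read corresponds to a fraction of 1 CPM. Counting intervals are exact, at 95%, and a count of 0 was set to a floor of 3 reads over the group. Exon lengths and overlaps are from GENCODE M21, and promoter windows from RefSeq.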

Additional observations from a re-analysis of the deposited data

Results flagged for a closer look

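Of 270 checks of a gene with library values in a group of 4, 18 had a highest or lowest library farther from the others than the 95% limit of Dixon's test allows. Chance alone would give about 1 in 20. Cxcl1 in immature 0dpr replicate 1 was 40.0 CPM, the highest of its group. The lowest library of Cxcl1 at 14dpr in immature mice was replicate 4 at 4.04 CPM. Mature 2dpr replicate 3 had the highest Ackr1 of its group at 16.3 CPM and Ccl27a at 0 CPM. Mature baseline replicate 3 had the highest Pf4 at 203 CPM and the highest Ppbp at 475 CPM. Ppbp was also highest in immature 14dpr replicate 2 at 53.2 CPM. Among immature baseline libraries, Cxcr2 was highest in replicate 2 at 55.2 CPM, Cxcr4 was highest in replicate 6 at 129 CPM, and Ccr3 was lowest in replicate 4 at 18.4 CPM. Among immature libraries at 2dpr, Ccl7 was lowest in replicate 1 at 156 CPM and Cxcl13 was lowest in replicate 4 at 0.232 CPM. At 5dpr, Ackr1 was lowest in immature replicate 4 at 3.54 CPM and Ccl25 in immature replicate 2 at 6.19 CPM. In mature mice Ccl25 was highest in baseline replicate 2 at 9.81 CPM, Ccl5 and Cxcl3 were highest in 0dpr replicate 4 at 5.14 CPM and 0.139 CPM, and Cxcl5 was lowest in 2dpr replicate 2 at 24.2 CPM.

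Among the genes below the filter, a few had more reads in a library after resection than a count of 0 allows and more than in any baseline library. The highest count after resection was 5 reads for Ccl19-ps1 (3 at baseline), 5 reads for Ccl28 (4 at baseline), 5 reads for Ccr10 (4 at baseline) and 4 reads for Cxcl17 (1 at baseline). No test was run on these genes.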

How the results depend on the processing

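No call changed direction under the settings listed next. This check did not cover the muscle score, the fits chosen after seeing the data, or the calls over the mean of stages. Of 203 calls of a gene in a comparison, 198 held with RLE size factors, 197 with all genes that had at least 1 count, 198 of the 198 that could be tested after filterByExpr, 184 with a replicate block, 202 with DESeq2, 162 with only the libraries compared, and 1414 of 1595 fits with 1 library left out. RLE factors shifted all genes by -0.09 on the log2 scale at most (0dpr to 2dpr in immature mice).

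With the replicate block the immature count at 0dpr was 5 in place of 15, and no other count moved by over 1.5 times. The replicate numbers did not pair the libraries, since same-numbered libraries had a mean correlation of deviations of 0.00847 over 154 pairs, with 7.14% above 0.1. With the muscle score the counts were 6 (immature) and 2 (mature) at 0dpr against baseline, 18 and 15 at 2dpr against 0dpr, 13 in immature mice at 14dpr against baseline and 3 over the mean of stages. With only the libraries compared they were 1 for immature 0dpr against baseline, 17 (immature) and 20 (mature) for 14dpr against 5dpr, 10 for mature 5dpr against 2dpr, and 2, 0 and 0 between the ages at baseline, 0dpr and 2dpr. With DESeq2 they were 14 for mature 14dpr against 5dpr, 2, 3 and 3 between the ages at baseline, 0dpr and 2dpr, 10 over the mean of stages and 2 for the interaction at 2dpr. Without immature 0dpr replicates 1 and 3 they were 1 at 0dpr against baseline, 0 between the ages at 0dpr and 2 over the mean of stages. Without mature 2dpr replicate 3 they were 12 for mature 14dpr against 5dpr and 10 over the mean of stages. The cause was not tested.

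With 1 library of the groups compared left out in turn, the counts ranged from 7 to 19 for immature and 6 to 14 for mature 0dpr against baseline, 4 to 8 for mature 14dpr against 5dpr, 0 to 5 between the ages at 0dpr, 0 to 4 at 2dpr, 2 to 10 over the mean of stages and 0 to 1 for the interaction at 2dpr. Genes with few reads, such as Ccl20, Xcl1 and Cxcl11, are limited by depth, and differences in them were often not detectable.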
